A study of Mus musculus with 4 samples.

Results

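Granulosa spots of growing follicles were the spots of mouse ovary sections in which transcripts of 6 genes of growing follicles (Inhba, Inhbb, Nppc, Amh, Fshr and Cyp19a1) were most concentrated. Spots with at least 1000 UMIs (counts of unique RNA molecules) were scored by the summed UMIs of these genes per 10000 UMIs, and the top 10% over all sections were taken, which gave 413 of 4134 scored spots and of 4191 spots in all. The sections came from outbred CD-1 female mice, young (3 to 4 months) or naturally aged (15 to 16 months), with no genetic change or drug in either group, 4 animals per age and 1 section per animal. Both ages shared each of 4 capture areas of the Visium assay, an array of barcoded spots that catches RNA from a frozen section, and the areas are numbered 1 to 4 here. A spot is a small region that can hold several cells of different types, so that no value belongs to single granulosa cells. The question is what these spots hold, how they lie in the section and whether they differ between ages.

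Granulosa cells surround the oocyte, divide as the follicle grows and make oestradiol from androgens that the theca layer outside the follicle supplies. They also make inhibins and activins, dimers built from an alpha subunit (Inha) and 2 kinds of beta subunit (Inhba, Inhbb), which feed back on follicle-stimulating hormone (FSH) from the pituitary. Granulosa cells of small growing follicles are known for Amh, those of larger antral follicles for aromatase (Cyp19a1) and the luteinising hormone receptor (Lhcgr), and after ovulation they turn into luteal cells.

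The members formed a range rather than a class set off by a gap. The lowest scores inside were 3.76 and 3.77 and the highest outside 3.74 and 3.73, and 76 members and 79 other spots lay within 20% of the threshold. The median member scored 8.58 and the highest 112.1, against a median of 0.393 in the other spots. Of all UMIs of the 6 genes, 76.6% fell in the members. The young sections held 53, 24, 64 and 15 granulosa spots (areas 1 to 4, the order kept for all values below) and the aged sections 67, 22, 49 and 119. Their summed UMIs ran from 454995 to 1158002 in the young and from 322937 to 1908618 in the aged sections, and the median UMIs per granulosa spot from 14507 to 30179.5 and from 8308 to 18367. Of 2204 distinct spot barcodes, 1358 occurred in more than 1 capture area, and spots were kept apart by area.

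Area 3 ran against the other areas in several measures. Oocyte-rich spots (the top 10% by 18 oocyte genes) numbered 114, 57, 5 and 117 in the young and 3, 18, 93 and 6 in the aged sections, so that the young section was the richer in areas 1, 2 and 4 and the aged section in area 3. Ages were assigned from the side of the area that the labels name for each section. A rotated image and a difference between animals cannot be told apart here, and results between ages are given with and without that area.

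Inhba and Inhbb, the activin and inhibin beta subunits, carried the choice. They gave 41.5% and 43.9% of the score UMIs in the members, against 7.08% for Nppc, 5.003% for Cyp19a1, 2.37% for Fshr and 0.159% for Amh. At least 1 Inhba UMI was found in 382 of the 413 spots (92.5%), and 1 of Inhbb in 89.3%, against 32.6% and 29.5% of the other spots, with median depths of 15785 and 18275 UMIs. The next most frequent were Nppc in 46.0%, Fshr in 44.3% and Cyp19a1 in 43.8% of the members. Amh, the hormone that defines granulosa cells of small growing follicles, was found in 24 members (5.81%), against 2.58% of the other spots, and only 19.7% of its UMIs lay in the members. The members are thus best described as Inhba- and Inhbb-rich spots, and the label holds for Amh only weakly.

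The 5′ flanks of 4 score genes are shown because their levels set the members. Each line gives the 120 bases before the start site in RefSeq (GRCm38.p6, the sequence that mm10 names), 5′ to 3′ on the gene's strand, with motif matches in capitals. They lie at chr13:16011731-16011850 (+) for Inhba, chr1:119422249-119422368 (-) for Inhbb, chr1:86670574-86670693 (-) for Nppc and chr17:89200676-89200795 (-) for Fshr.
Inhba: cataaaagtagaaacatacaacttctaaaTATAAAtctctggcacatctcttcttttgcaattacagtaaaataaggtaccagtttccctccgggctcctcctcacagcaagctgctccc
Inhbb: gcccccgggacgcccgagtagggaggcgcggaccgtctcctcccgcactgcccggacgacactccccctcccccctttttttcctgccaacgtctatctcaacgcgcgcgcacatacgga
Nppc: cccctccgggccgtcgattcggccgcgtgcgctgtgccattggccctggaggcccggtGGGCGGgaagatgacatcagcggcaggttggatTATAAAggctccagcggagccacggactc
Fshr: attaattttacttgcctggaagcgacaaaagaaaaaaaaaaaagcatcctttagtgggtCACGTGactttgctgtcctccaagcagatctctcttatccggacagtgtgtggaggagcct
Both strands were searched for 6 motifs. The nuclear receptor site that Nr5a factors use was searched as AGGTCA. The E-box, a site of helix-loop-helix factors, was searched as CACGTG. The cAMP response element was searched as TGACGTCA, which includes no other motif of the set. The site of AP-1 factors was searched as TGAGTCA. The GC box of Sp factors was searched as GGGCGG, and the TATA box near the start site as TATAAA. Capitals mark CACGTG 61 bases before the start of Fshr, GGGCGG 62 and TATAAA 29 bases before that of Nppc, and TATAAA 91 bases before that of Inhba, whereas the Inhbb stretch shown held none of the 6. Of all 32851 RefSeq windows of 300 bases (250 before to 50 after a start), 7.15% held the E-box, 35.7% the GC box, 13.6% the TATA box, 16.3% the nuclear receptor site, 5.20% the AP-1 site and 1.79% the cAMP response element. These windows are longer than the 120 bases shown, so the shares are not rates for the stretches. The 300-base window of Inhbb held a GC box match on the opposite strand, 122 bases before the start. A match describes letters in these windows and shows no binding. Amh had no row in the table used, and Cyp19a1, which had windows at several start sites, is not shown.

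Levels of the 6 genes were summed over the members of a section and given as UMI counts scaled to a common library total (CPM), which are not per length and are compared here only within a gene. Inhba (chr13:16011851-16031621) reached 264, 381, 1181 and 174 CPM in the young and 2032, 762, 251 and 1126 CPM in the aged sections. The young section of area 3 and the aged sections of areas 1 and 4 were thus high, and the ages overlapped. In the other spots it was at 7.77 to 78.05 CPM. Inhbb (chr1:119415465-119422248) was at 669, 1085, 1609 and 242 CPM in the young and 1000, 709, 409 and 1330 CPM in the aged sections, with 14.5 to 54.5 CPM in the other spots. Its highest value was again in the young section of area 3, and the ages overlapped.

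Nppc (chr1:86666291-86670571) encodes C-type natriuretic peptide, which mural granulosa cells release to hold the oocyte in meiotic arrest. It was at 21.6, 71.4, 116 and 63.7 CPM in the young and 449, 105, 36.7 and 167 CPM in the aged members, against at most 4.17 CPM in the other spots of any section. Cyp19a1 (chr9:54165937-54268110), aromatase, was at 20.7, 2.64, 116 and 2.20 CPM in the young and 298, 12.4, 17.4 and 155 CPM in the aged members. Its 3 highest sections were those with the highest Inhba. Fshr (chr17:88984952-89200675), the FSH receptor, was at 59.6, 67.4, 41.9 and 154 CPM in the young and 40.3, 21.7, 77.2 and 38.8 CPM in the aged members, and its highest value was in the young section of area 4, where Inhba was lowest. Amh (chr10:80805243-80807648) was at 5.18, 2.64, 0 and 2.20 CPM in the young and 0, 0, 23.2 and 3.14 CPM in the aged members. Since these genes chose the spots, no test is given for them, although they were not taken out of the fits below.

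**Figure D1:**
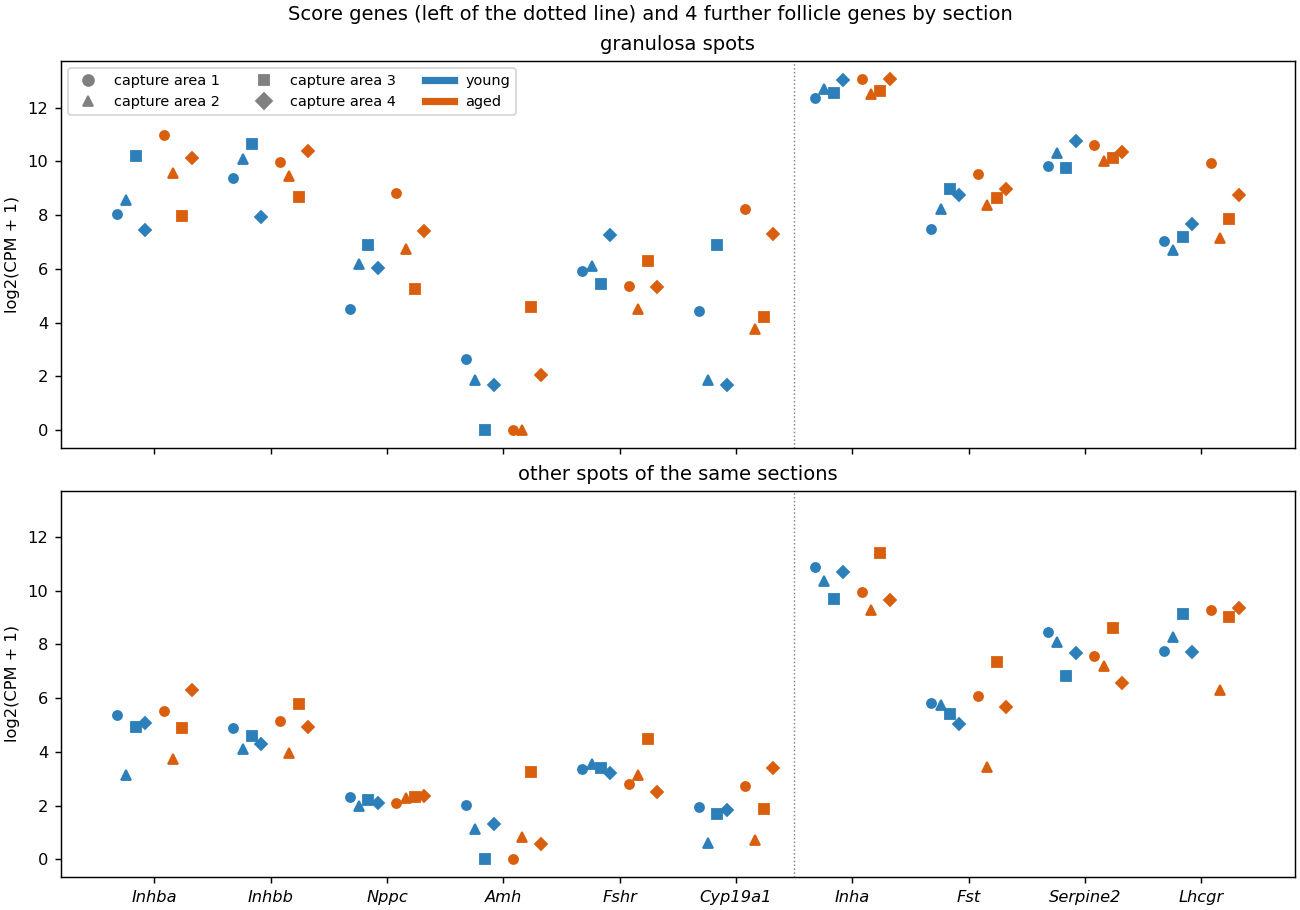
Levels of the 6 score genes and of Inha, Fst, Serpine2 and Lhcgr as log2(CPM + 1) in granulosa spots (top) and in the other spots of the same sections (bottom); each point is a section, with its colour for age and its shape for capture area. Inhba spans 174 to 2032 CPM among granulosa spots, and young and aged points overlap for each of the 6 score genes.

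Among the 413 members the score genes did not move as 1 block. Spearman correlations over spots, which share sections and depth and are given as a description, were 0.61 between Inhba and Cyp19a1, 0.57 between Inhba and Nppc and 0.46 between Inhba and Inhbb. Fshr stood at 0.05 and Amh at −0.25 against Inhba. Inha, which the score did not use, correlated with Serpine2 (a protease inhibitor of granulosa cells) at 0.87, with the activin-binding protein gene Fst at 0.77, with Nr5a2 at 0.76 and with Inhbb at 0.69. Its correlation with Cyp11a1, the enzyme that starts steroid synthesis from cholesterol, was −0.61.

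Other genes known from granulosa cells were high in the members. Of 18 such genes outside the score, 10 were higher in the members than in the other spots in 8 of 8 sections, against 9.1% of all genes with a mean of at least 10 CPM, and 0 were lower in all 8 (7.21% of all genes were). These counts describe the contrast that chose the members and support nothing by themselves. Inha (chr1:75507077-75510366) was at 5271, 6661, 5931 and 8402 CPM in the young and 8649, 5772, 6317 and 8491 CPM in the aged members, and at 616 to 2737 CPM in the other spots. The groups of spots did not overlap, while the ages did. Fst was at 180, 296, 506 and 431 CPM in the young and 739, 334, 399 and 495 CPM in the aged members, against a mean of 58.9 CPM in the other spots. Foxl2, the transcription factor that keeps granulosa identity, differed less, with a mean of 121 CPM against 75.0 CPM, although it was higher in 8 of 8 sections. Wt1 and Gatm were higher in 4 and in 1 of 8 sections, and Slc18a2, a vesicular monoamine transporter, ranged from 13.7 CPM in the aged section of area 1 to 554 CPM in that of area 3.

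Beyond the lists, the gene with the highest median ratio to the other spots was Nap1l5, an imprinted gene of the nucleosome assembly family. It was at 525, 506, 524 and 604 CPM in the young and 748, 477, 475 and 982 CPM in the aged members, and at 16.4 to 149 CPM in the other spots, a median of 22.5-fold. Next came the serpin gene Serpina3a (median log2 ratio 3.73), the anion transporter gene Slc26a7 (3.59), 1110032F04Rik (3.44), Fst (3.37), the carbonic anhydrase gene Car14 (3.26), the BMP antagonist gene Grem1 (3.08) and Ihh (3.07), the hedgehog ligand that granulosa cells send to theca cells. The other 12 of the 20 genes with the highest ratios were Slc38a5, Thbs4, Serpine2, Mro, Plxnc1, Masp1, Bmp3, Prkar2b, Inha, Rasl10a, Tmsb15b2 and Hsd17b1. Their median log2 ratios ran from 2.48 (Hsd17b1, an enzyme that makes oestradiol) to 3.07 (Slc38a5, an amino acid transporter gene), and all 20 were higher in 8 of 8 sections.

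Cell cycle genes were also higher. Of 20, 14 were higher in 8 of 8 sections (9.1% of all genes were), with a median log2 ratio over the list of 1.46, for example Ube2c (2.10), Ccnb1 (2.09), Mki67 (1.96) and Top2a (1.95). Among 25 genes of TGF-beta family signalling, 2 were higher in all sections, the BMP receptor genes Bmpr1b (2.42) and Bmpr2 (1.33). That share is near the 9.1% of all genes, 3 of the list were lower in all sections, and the median of the list was 0.02. Npr2, the receptor for the Nppc product, had a median log2 ratio of 1.29. It was among 2 of 12 cumulus and CNP receptor genes higher in 8 of 8 sections (list median 0.15). Foxo1, a forkhead factor of granulosa cells, had a ratio of 2.15. It was among 2 of 18 apoptosis and atresia genes higher in 8 of 8 sections (list median 0.05). Genes of luteal tissue went the other way, with 7 of 12 lower in 8 of 8 sections (7.21% of all genes were) and a median log2 ratio of −1.26. Their sum was 6242 to 14321 CPM in the members and 12082 to 24404 CPM in the other spots.

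Markers of other cells were present in the members too. Macrophage genes summed to 125 to 591 CPM in the young and 179 to 1567 CPM in the aged members, with a median log2 ratio of −0.91 against the other spots, and Cd163 was at or near 0 in all sections. Stroma genes summed to 1862 to 2886 and 1658 to 3524 CPM, endothelial genes to 288 to 911 and 334 to 710 CPM, and oocyte genes to 161 to 882 and 74.3 to 982 CPM. In such bulk-like sums, fewer cells of a type and less RNA per cell cannot be told apart.

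Granulosa spots lay in compact patches. Of the 413, 366 (88.6%) fell in 18 clumps of at least 3 joined neighbours, and 47 stood in none. Among the neighbouring spots of a granulosa spot, 55.8 to 73.0% were granulosa spots in the young and 45.02 to 82.6% in the aged sections. The young sections had 2, 1, 2 and 1 clumps and the aged sections 2, 2, 3 and 5. The largest were clumps of 65 spots in the aged section of area 4, 54 in the aged section of area 1 and 53 in the young section of area 3.

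**Figure D2:**
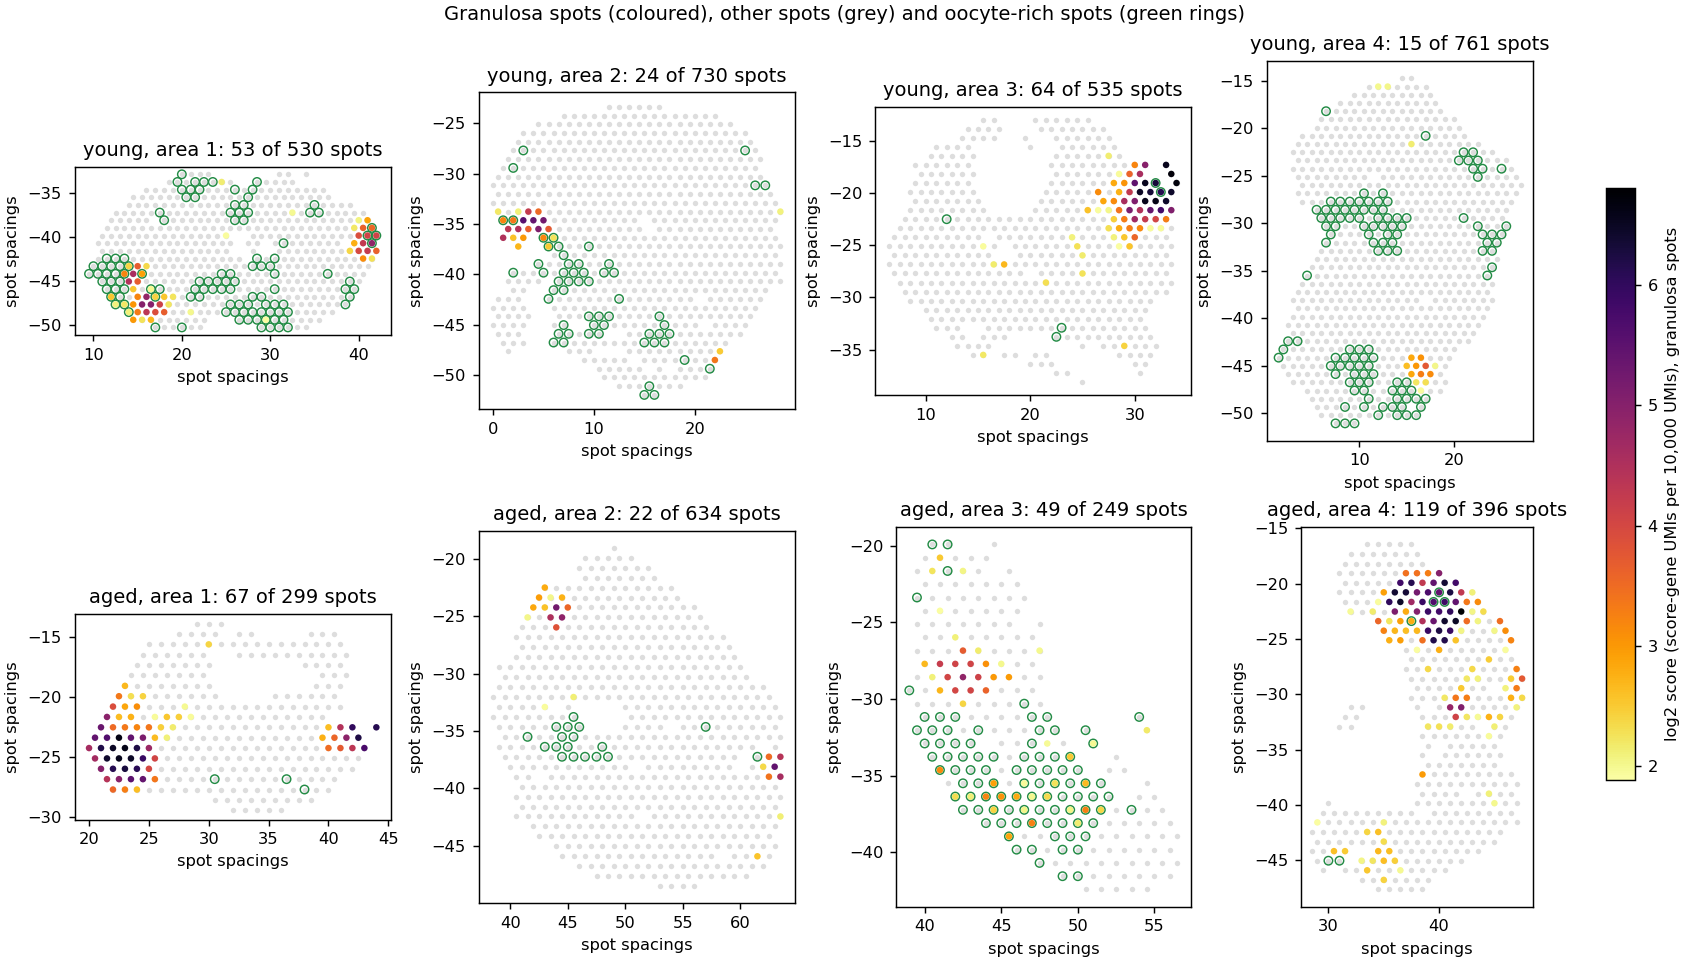
Maps of the 8 sections on the array (both axes in spot spacings), with granulosa spots coloured by log2 score, other spots with at least 1000 UMIs in grey and oocyte-rich spots ringed in green. The granulosa spots form 18 clumps, and many oocyte-rich spots are seen in the young sections of areas 1, 2 and 4 and in the aged section of area 3.

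The clumps differed in their genes. Inhba was highest in both clumps of the aged section of area 1 (1932 CPM in that of 54 spots and 2583 CPM in that of 11), in the 65-spot clump of the aged section of area 4 (1503 CPM) and in the 53-spot clump of the young section of area 3 (1268 CPM). The same 4 clumps had the highest Cyp19a1, at 311, 182, 221 and 127.004 CPM, with the next at 70.7 CPM. Their Lhcgr levels were 977, 1013, 500 and 144 CPM and their oocyte gene sums 60.6 to 237.7 CPM. A contrasting set of 5 clumps had oocyte gene sums above 500 CPM. These were both clumps of the young section of area 1 (913 and 572 CPM), the clump of the young section of area 2 (810 CPM) and the clumps of 13 and 4 spots in the aged section of area 3 (2190 and 1791 CPM). The last pair had Inhba at 62.7 and 217 CPM, no Cyp19a1 UMI, Slc18a2 at 890 and 380 CPM and 8 and 1 Amh UMIs. No Amh UMI was found in 11 of the 18 clumps and no Cyp19a1 UMI in 6.

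Inha was at 3334 to 11836 CPM in 16 clumps. The 2 exceptions were a clump of 12 spots in the aged section of area 4, with Inha at 633 CPM, Akr1c18 (which breaks down progesterone in luteal cells) at 17543 CPM and luteal genes summing to 26467 CPM, and a clump of 3 spots in the young section of area 3 (603 CPM, from 6635 UMIs in all). The markers thus go against the granulosa label in the clump of 12 spots, which entered mainly through Inhba at 456 CPM. The clump of 3 spots had Inhba at 301 and Inhbb at 151 CPM and no UMI of the other score genes. Its median was 2234 UMIs per spot, a depth at which a single UMI of a score gene makes a spot a member. Its markers rest on too few UMIs to judge the label.

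**Figure D3:**
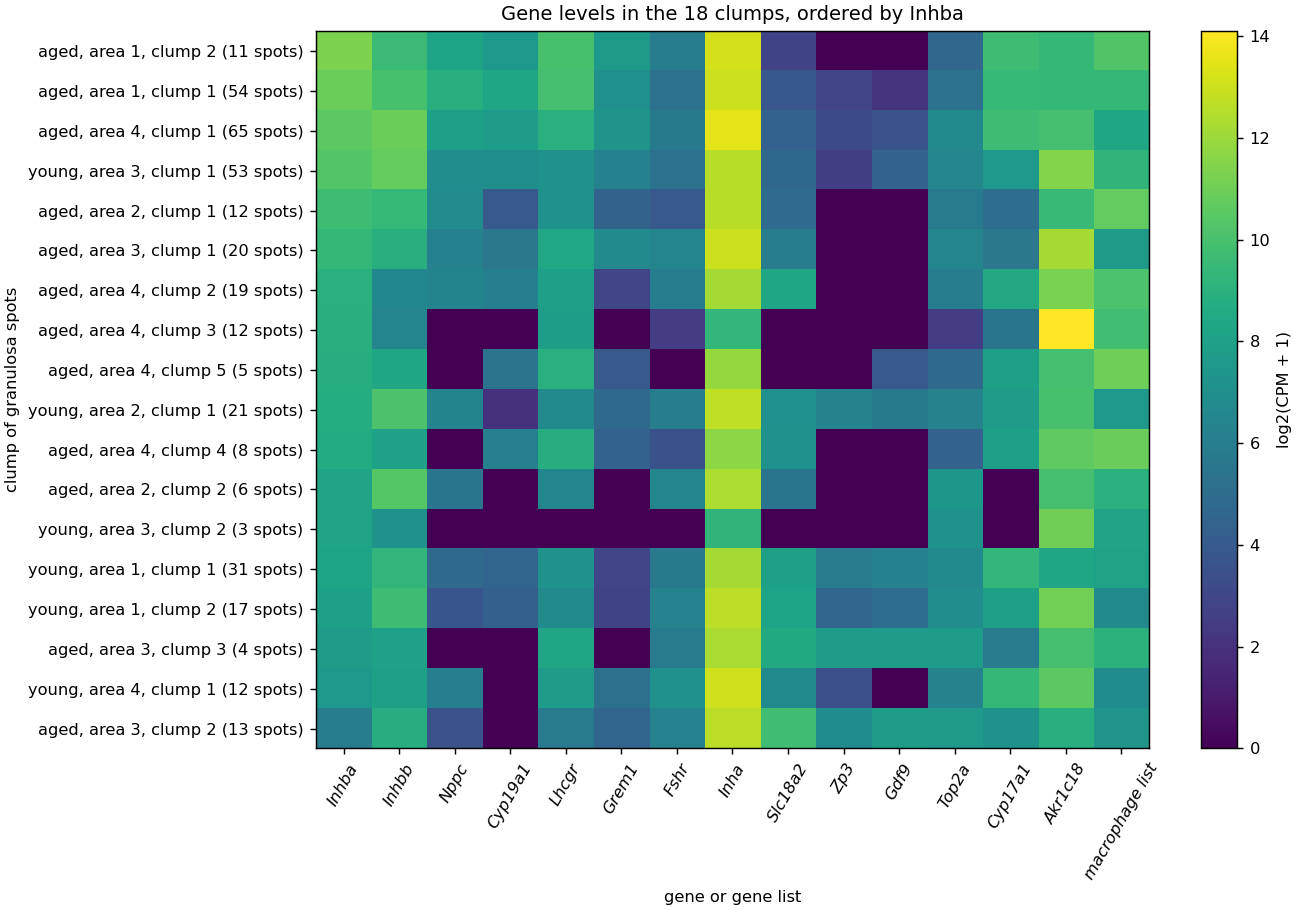
Levels of 14 genes and of the macrophage list as log2(CPM + 1) in the 18 clumps, ordered by Inhba, with section and number of spots at the left. The 4 clumps at the top, from 3 sections, are those with the highest Cyp19a1 (127.004 to 311 CPM), and the clump with 17543 CPM of Akr1c18 stands apart.

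Within clumps, 97 core spots had members at all 6 neighbouring positions and 269 edge spots did not. Sections had 1 to 32 core spots, and the comparison is a description, since neighbours were chosen by the same score. Serpine2, Ihh and Grem1, which the score did not use, were higher in the core in 8 of 8 sections, with median log2 ratios of 0.87, 0.85 and 1.09, and Inha and Nr5a2 in 7 of 8 (0.88 and 0.78). Mki67 and Top2a were higher in the core in 7 of 8 sections (0.71 and 0.58). Igfbp5 and Akr1c18 were lower in the core in 8 of 8 (−0.997 and −1.24), and Cyp11a1 and Star in 7 of 8. Lhcgr was lower in the core in 5 of 8 sections (−0.53), with no common direction.

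Spots outside the chosen set were compared by their distance from the clumps. Summed theca genes were not different beside clumps (1 spacing away) from spots more than 3 spacings away, with a mean log2 ratio of −0.08 ± 0.32 (SD, n = 8 sections), higher in 4 of 8 (exact sign-flip permutation test, two-sided, p = 0.461, adjusted over 2 lists 0.875). Hsd3b1, a steroid enzyme that luteal tissue shares, dominated that sum at 8162 CPM beside clumps and 8880 CPM farther away. With the list taken without it, an alternative chosen after seeing the data, the mean log2 ratio was 0.54 ± 0.41, higher in 7 of 8 sections (exact p = 0.0234, adjusted 0.0469, the smallest possible being 0.00781). With each gene weighted alike it was 0.49 ± 0.55, higher in 6 of 8 (exact p = 0.0469, adjusted 0.0938).

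Cyp17a1, the theca enzyme that makes androgens, was at 517, 278, 29.4 and 1575 CPM beside the clumps of the young sections and at 220, 125, 69.5 and 332 CPM farther away. In the aged sections it was at 424, 11.1, 119 and 197 CPM beside clumps and 55.3, 9.55, 27.1 and 34.7 CPM farther away. It was thus higher beside clumps than farther away in 7 of 8 sections, by a mean log2 ratio of 1.39 ± 1.36, and the young section of area 3 was the exception. Inside the clumps Cyp17a1 was at 471, 217, 181 and 677 CPM in the young and 704, 30.2, 94.1 and 648 CPM in the aged sections. That was above the level beside clumps in the young section of area 3 and the aged sections of areas 1, 2 and 4, and below it elsewhere. Gli1, a target of hedgehog signalling in theca cells, was higher beside clumps in 8 of 8 sections (1.02 ± 0.80) and Hhip, another such target, in 7 of 8 (1.11 ± 1.34). The other granulosa genes, which were also higher beside clumps in 7 of 8 sections (0.70 ± 0.44), moved with them, and their part in the theca values was not tested.

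Summed oocyte genes had a mean log2 ratio of 0.09 ± 0.72 beside clumps against farther away, higher in 4 of 8 sections (exact p = 0.875), and without area 3 one of −0.15 (n = 6, exact p = 0.406). Macrophage genes were lower beside clumps in 8 of 8 sections (−0.48 ± 0.29), as a description. Inside the clumps they were lower still in 7 of 8 sections, the aged section of area 2 being the exception at 1582 CPM inside and 854 CPM beside.

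**Figure D4:**
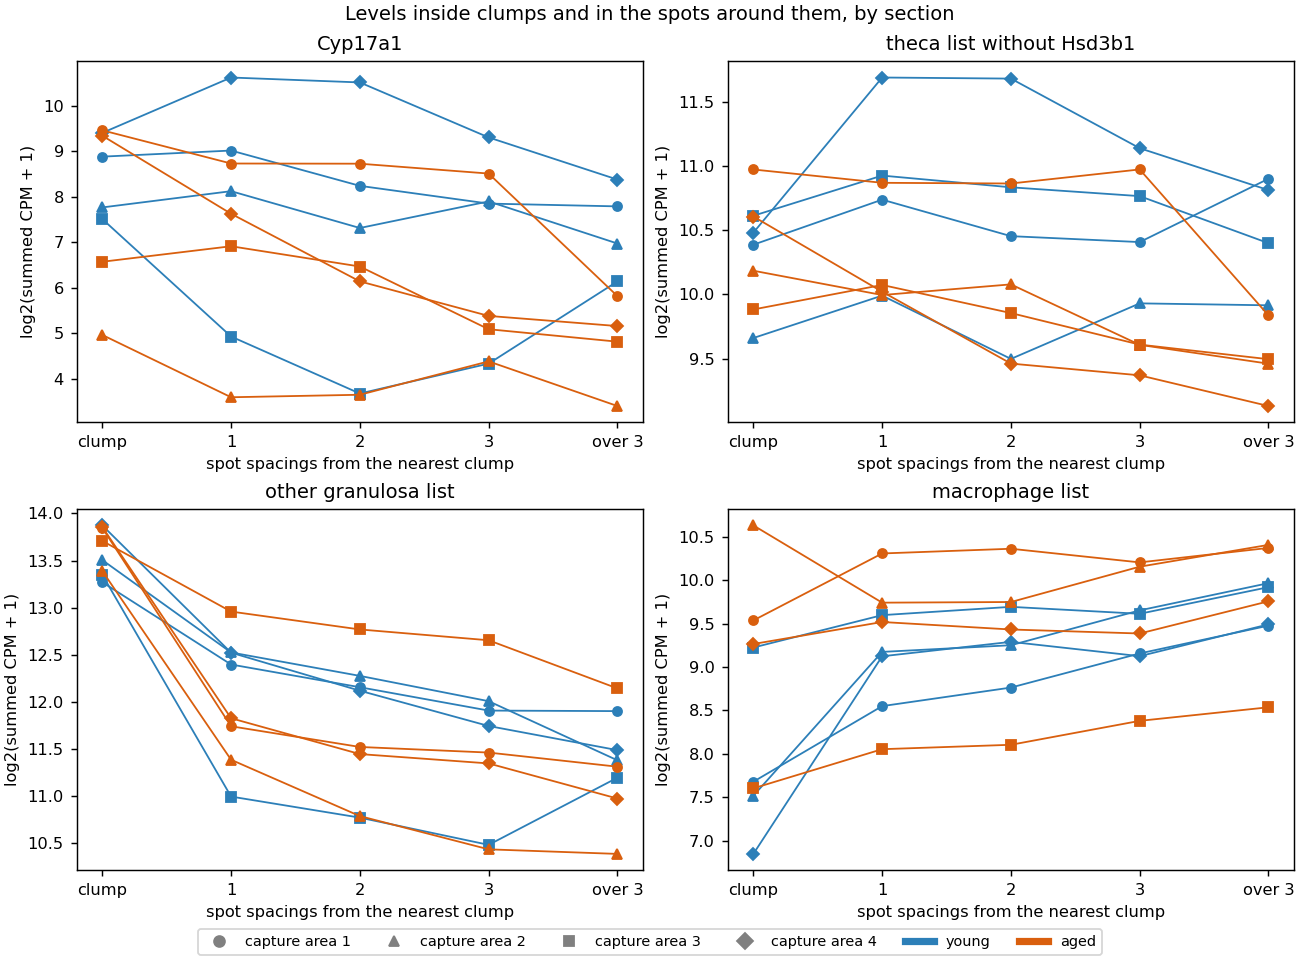
Levels of Cyp17a1, of the theca list without Hsd3b1, of the other granulosa list and of the macrophage list, as log2(summed CPM + 1), inside clumps and in non-member spots 1, 2, 3 and over 3 spacings away; each line is a section, coloured by age, with a shape per capture area. The granulosa list is highest inside the clumps of all 8 sections, and Cyp17a1 is higher at 1 spacing than beyond 3 in 7 of 8 sections.

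Turning to age, granulosa spots made up 10.0, 3.29, 12.0 and 1.97% of the scored spots of the young sections and 22.4, 3.47, 19.7 and 30.1% of those of the aged sections. The scored spots numbered 530, 730, 535 and 761 in the young and 299, 634, 249 and 396 in the aged sections. In areas 2 and 3 the aged section held fewer granulosa spots (22 against 24 and 49 against 64) but a higher share. The part of section size in the shares was not tested. The exact 95% binomial intervals (Clopper-Pearson, counting error only) ran from 1.11 to 3.23% in the lowest and from 25.6 to 34.8% in the highest section. The share was higher in the aged section of every area, at 6.81 ± 4.92% in young and 18.9 ± 11.2% in aged sections (SD, n = 4), and the ages overlapped through the aged section of area 2. The difference did not pass the exact permutation test (two-sided, p = 0.0857, adjusted over 4 measures 0.171, smallest possible 0.0286). Without the aged section of area 2 the exact p was 0.0286 (adjusted 0.0571), and without area 3 the difference was 13.6 percentage points (exact p = 0.2, smallest possible 0.1). With each spot thinned to 5000 UMIs, which left out 4 to 68 shallower spots per young and 18 to 103 per aged section, the shares were 14.4, 4.82, 9.64 and 1.62% against 29.2, 2.64, 14.9 and 26.0%. The aged section was then higher in 3 of 4 areas (exact permutation p = 0.171, adjusted 0.229), area 2 being the exception. With the top 5% of spots as members it was higher in 2 of 4 areas.

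Clumps numbered 0.255 ± 0.139 per 100 scored spots in young and 0.863 ± 0.452 in aged sections (n = 4, exact permutation p = 0.0857, adjusted 0.171), again higher in the aged section of all 4 areas. In area 1 both sections had 2 clumps, and the rates differed only because the aged section had 299 scored spots against 530. They held a mean of 21.2 ± 6.80 spots in young and 18.9 ± 10.6 in aged sections (exact p = 0.743). Of the clumps of a section, 87.5 ± 25.0% in young and 42.5 ± 43.5% in aged sections lay within 1 spacing of an oocyte-rich spot (exact p = 0.257, adjusted 0.343), with values of 100, 100, 50 and 100% against 0, 50, 100 and 20%. Area 3 was the exception to the order of the other areas, and without it the difference was −76.7 percentage points (exact p = 0.1, the smallest possible). That area was singled out by its oocyte-rich spots, on which this measure rests, so the value without it supports nothing by itself. In areas 1, 2 and 4 oocyte-rich spots numbered 114, 57 and 117 in the young and 3, 18 and 6 in the aged sections. The part of these numbers in the difference was not tested. With the top 20% of spots as members the difference was gone, at 49.6% in young and 49.2% in aged sections (−0.417 percentage points).

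Gene levels in granulosa spots were compared between ages with edgeR's quasi-likelihood test on counts summed per section. Of 9270 genes tested, 0 (0%) passed a Benjamini-Hochberg adjusted p of 0.05, 326 had an unadjusted p under 0.05, and the lowest adjusted p was 0.893. DESeq2 called 3 genes, Scd1, Sema3d and Fabp4 (0.0324% of those with an adjusted p), all higher in aged members, and edgeR with no filter on low counts called 8 of 18771. The median log2 fold change, aged over young, was −0.03 over all genes, and 46.5% of genes were higher in aged members. Of the 9270 genes, 159 (1.72%) had ages that did not overlap, 108 with all aged sections above all young ones.

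Of the 10 genes with the smallest p, 8 were higher and 2 lower in aged members, each short of the threshold. Scd1 (chr19:44394455-44407879), which desaturates fatty acids, was at 25.0, 18.5, 15.1 and 15.4 CPM in the young and 49.0, 43.4, 81.0 and 118 CPM in the aged members, with no overlap. Its log2 fold change was 1.93 ± 0.35 (SE), with an adjusted p of 0.893 in edgeR and 0.0323 in DESeq2. Fabp4, a fatty acid binding protein gene of fat, endothelium and macrophages, was at 5.18, 13.2, 15.1 and 17.6 CPM in the young and 59.8, 6.19, 135 and 126.8 CPM in the aged members, overlapping through the aged section of area 2 (2.78 ± 0.60; adjusted p 0.893 in edgeR, 0.0388 in DESeq2). Sema3d, a semaphorin gene, was at 6.04, 9.25, 14.0 and 4.40 CPM against 41.8, 12.4, 38.6 and 91.2 CPM (overlapping through the aged section of area 2; 2.51 ± 0.49; adjusted p 0.893 in edgeR, 0.0323 in DESeq2).

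With the top 10% of spots within each section as members, the log2 fold change was 0.67 for Scd1 and 0.27 for Sema3d. All 3 genes were also higher with age outside the members. The log2 fold changes in the other spots of the same sections were 1.503 for Scd1, 1.88 for Fabp4 and 2.27 for Sema3d, and none passed the threshold there or in the interaction test. Fut8, a fucosyltransferase gene, was at 52.7, 37.0, 41.9 and 44.0 CPM in the young and 93.6, 118, 104 and 81.7 CPM in the aged members, with no overlap (1.11 ± 0.23). Sesn3 (1.24 ± 0.31), a stress-response gene, also had no overlap between ages. Plch2, Bace2 and Nrcam had log2 fold changes of 1.54, 1.93 and 2.77 with overlapping ages, and of 0.44, 0.10 and −0.0888 with the top 10% within each section. In that alternative Fut8 was at 0.57 and Sesn3 at 0.33. Paqr6, a membrane progestin receptor gene, was lower in aged members, at 5.04, 3.10, 11.6 and 5.76 CPM against 19.0, 30.4, 22.1 and 21.98 CPM (−1.93 ± 0.40), and so was Sytl2 (−1.68 ± 0.41), both with no overlap.

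**Figure D5:**
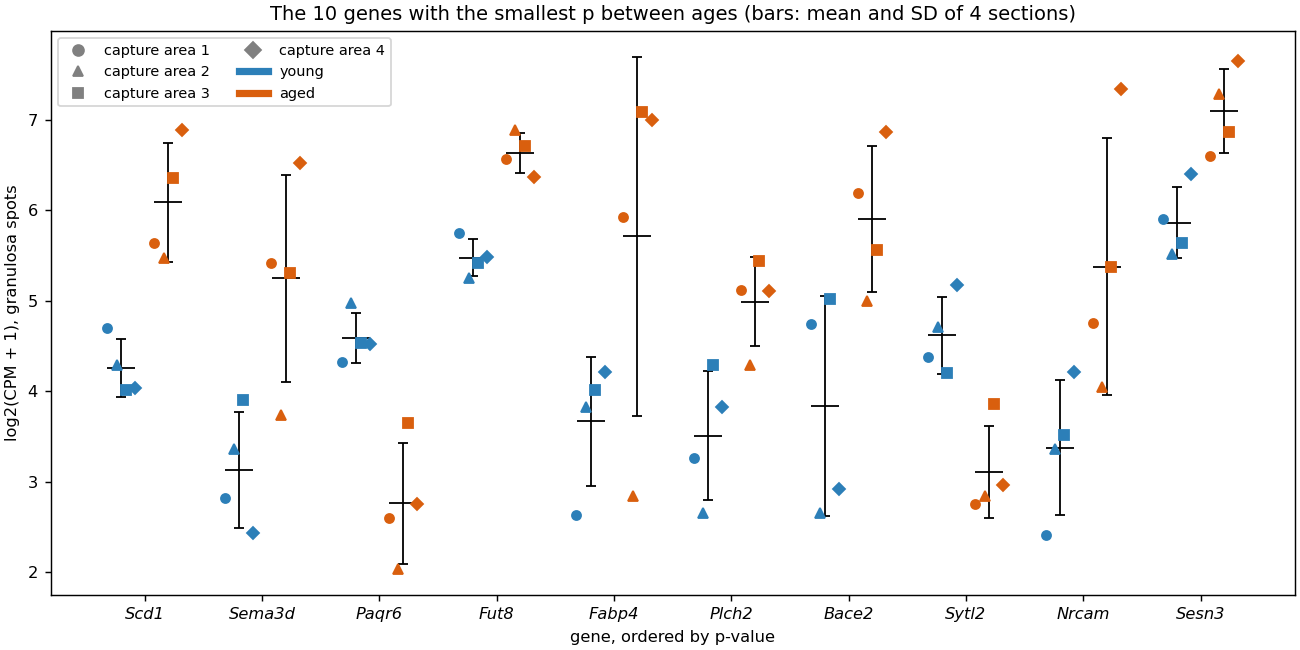
Levels of the 10 genes with the smallest p between ages, as log2(CPM + 1) in granulosa spots; points are sections, with colour for age and shape for capture area, and black bars give the mean and SD of 4 sections. Paqr6 and Sytl2 are lower and the other 8 higher in aged sections, and none passed the adjusted threshold in edgeR.

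Gene lists were read against the background of 46.5% of genes higher in aged members. All 22 tested genes of cholesterol synthesis were higher in aged members, with a median log2 fold change of 0.64 and 0 called, for example Hmgcs1 (129, 128, 209 and 138 CPM against 282, 152, 152 and 633 CPM) and Hsd17b7 (61.3, 37.0, 62.9 and 98.9 CPM against 103, 43.4, 201 and 934 CPM). The aged section of area 4 was the highest for both, and that section held the clump rich in luteal genes. In the members these genes were mostly lower than elsewhere, with 13 of 22 lower in 8 of 8 sections (7.21% of all genes were). Macrophage genes were higher in aged members for 8 of 8 tested (median 1.08), for example Lyz2 (94.1, 75.3, 199 and 26.4 CPM against 292, 904, 88.8 and 229 CPM), and 0 were called. Mitochondrially encoded genes were higher for 11 of 11 tested (median 0.99), with sums of 6668 to 15775 CPM in young and 12709 to 35979 CPM in aged members, and 0 were called. In the other spots, cholesterol genes summed to 2169, 3112, 7547 and 2215 CPM (young) and 6409, 5194, 2864 and 13236 CPM (aged). Mitochondrially encoded genes were there at 19173, 9651, 11377 and 5888 against 27874, 13717, 28109 and 13244 CPM. Macrophage genes were at 650, 975, 945 and 707 against 1298, 1304, 324 and 775 CPM. No gene of these lists passed the interaction test, so their differences are not shown to be particular to the members.

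Cell cycle genes were lower in aged members for 16 of 19 tested (median −0.28), among them Mki67 at 82.9, 74.0, 44.3 and 70.3 CPM in the young and 20.2, 34.1, 73.3 and 39.8 CPM in the aged members. The median of this list was −0.90 without area 3, 0.19 without area 1 and 0.01 with the top 10% of spots within each section, so that its direction turned. Outside area 3 the aged values of Mki67 lay below all young ones. Of the 18 other granulosa genes, 10 were higher and 8 lower (median 0.00). Among the FSH response and antral growth genes, 6 of 11 tested were higher, with Lhcgr at 129, 103, 146 and 204 CPM in the young and 980, 139, 232 and 426 CPM in the aged members (log2 fold change 1.60) and Prkar2b, a regulatory subunit of protein kinase A, at 338, 362, 633 and 411 against 1192, 672, 538 and 830 CPM (0.90). Neither passed the adjusted threshold.

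The count of genes rested on area 3. With both of its sections left out, edgeR called 193 of 9570 genes, 99 higher (1.03%) and 94 lower (0.982%) in aged members, while leaving out any 1 section, or both sections of area 1, 2 or 4, gave 0. The 99 include the score genes Inhba and Cyp19a1. These chose the spots, so their calls support nothing. The genes below were picked after their values were seen. Nnat, an imprinted gene, was at 409, 130, 40.8 and 207 CPM in the young and 36.0, 24.8, 127.4 and 18.3 CPM in the aged members. Dsp, desmoplakin of cell junctions, was at 141, 93.9, 45.4 and 76.9 CPM against 7.20, 6.19, 102 and 24.6 CPM. In both, area 3 had the opposite order to the other areas.

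Without area 3 the list medians were 1.97 for macrophage, 1.04 for cholesterol synthesis and 0.31 for mitochondrially encoded genes. With the top 10% of spots within each section the macrophage median was 0.18 and the cholesterol median 0.18, and the latter was 0.10 with the top 5% and 0.27 without the aged section of area 4. By list, 6 of 8 macrophage genes (C1qa, C1qb, C1qc, Lyz2, Gpnmb and Ctss) were called higher without area 3, against 1.03% of all genes. Called lower were 4 of 19 cell cycle genes (Mki67, Cdk1, Birc5 and Ube2c) and 3 of 6 oocyte genes (Zp3, Padi6 and Uchl1), against 0.982% of all genes. Area 3 was singled out by oocyte-rich spots, so the calls of oocyte genes support nothing by themselves. Of the apoptosis and atresia genes, Clu was called higher and Foxo1 lower. Of the other granulosa genes, 1 of 18 was called, Slc18a2, lower (263, 151, 25.6 and 123 CPM against 13.7, 27.9, 554 and 46.1 CPM). Of the FSH response genes Prkar2b was called, higher, and of the stroma genes Dcn. The sections of areas 1, 2 and 4 also differ in how many oocyte-rich spots the members include, with 14, 5 and 0 in the young and 0, 0 and 4 in the aged sections, and the part of this in the calls was not tested.

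Whether the age difference in granulosa spots differed from that in the rest of the section was tested with an interaction term. Of 12142 genes, 0 (0%) passed in edgeR, 598 had an unadjusted p under 0.05, and the lowest adjusted p was 0.232. With the top 5% of spots 4 genes passed, with no filter on low counts 92, and without area 3, 20. Ccdc3, a secreted factor gene, had the smallest p. It was at 64.8, 31.7, 22.1 and 39.6 CPM in the young and 63.4, 43.4, 23.2 and 59.2 CPM in the aged members, while in the other spots it was at 44.6, 26.0, 18.0 and 27.1 CPM and 15.8, 9.59, 10.6 and 10.8 CPM. The ages did not overlap in the other spots and did in the members. Frzb, a secreted inhibitor of Wnt signalling, was higher in aged members with no overlap (10.4, 21.2, 15.1 and 19.8 against 65.5, 61.9, 27.0 and 36.7 CPM) and had an interaction term of 2.13 ± 0.42 (adjusted p 0.268). The other 3 were Fxyd6 (1.38 ± 0.25), Hao2 (1.62 ± 0.31) and Sema7a (−1.20 ± 0.22), each with an adjusted p of 0.232 or more.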

How the data were processed

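Frozen ovary sections of 10 µm were placed on 4 Visium capture areas, each with 1 young and 1 aged section, and permeabilised for 18 minutes, per the labels' protocols. The authors deposited raw UMI counts per gene and spot (whole numbers with differing totals) and spot positions in array and pixel units (other units, per the labels). Space Ranger 1.2.1 and the build mm10 are named in the submitters' processing notes. Annotation, filters and strand handling: not given in the sources used here. The score, members, gene lists and tests were chosen with earlier results of these data known.

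Each spot got its age from the side that the labels name, split by the widest gap in pixel position, with small pixel rows as top and small columns as left. Members of a section were summed (at least 10 spots), and edgeR 4.0.16 (R 4.3.3, TMM, filterByExpr, Benjamini-Hochberg, threshold 0.05) fitted age over all genes; DESeq2 1.42.0 was an alternative. CPM use total counts without TMM factors, and ratios to other spots use log2(CPM + 1). Animals are the replicates, 1 section each. Sections of 1 capture area share a library and so were treated as pairs in the blocked fit; correlations across genes of paired members after removing age means were 0.0314, 0.170, −0.0814 and −0.0174. Rings, clumps and section shares used exact permutation tests (Python 3.11.15, scipy 1.17.1). Named genes were the 10 (age) or 5 (interaction) with the smallest p where under 10 passed, the 6 score genes, up to 4 of the highest members of each list, and the 20 genes highest against other spots with a mean of at least 50 CPM; other list members named are examples chosen after their values were seen. Gene positions are from GENCODE M21. Fits were tested on simulated counts. No doublet caller was run. Summed counts of 322937 to 1908618 UMIs per section limit genes of a few CPM to single counts.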

Additional observations from a re-analysis of the deposited data

Results flagged for a closer look

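Of 148 groups of 4 sections (values of genes, gene lists and section measures in granulosa spots), 16 held a section far from the other 3. Chance alone would flag about 1 in 20 independent groups. These groups are not independent, since lists share genes (Star is in the FSH response, luteal and steroidogenic lists) and the score genes that chose the members are included. The number flagged is thus a description and no test. Of these, 12 were in area 3. In its young section, summed CPM of the members were 9849 for FSH response and antral growth genes (next 5104), 14504 for theca genes (next 5673), 14321 for luteal genes (next 7341), 27455 for steroidogenic genes (next 11734) and 5342 for Wnt and Notch genes (next 1301). Cyp19a1 was at 116 CPM there (next 20.7 CPM), and 50% of its clumps lay near an oocyte-rich spot against 100% in the other young sections. In the aged section of area 3, oocyte genes summed to 982 CPM (next 213 CPM), apoptosis and atresia genes to 1897 CPM (next 3319 CPM), and Amh was at 23.2 CPM (next 3.14 CPM), Sytl2 at 13.5 CPM (next 6.81 CPM) and Rasl10a, a small GTPase gene, at 114 CPM (next 43.4 CPM).

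In other areas, luteal genes summed to 11688 CPM in the aged section of area 4 (next 7396 CPM), matrix and basement membrane genes to 2208 CPM in the aged section of area 2 (next 1919 CPM), and smooth muscle and pericyte genes to 1814 CPM in the young section of area 1 (next 891 CPM). Serpina3a was at 594 CPM in the young section of area 2 (next 136 CPM). What sets these sections apart was not tested.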

How the results depend on the processing

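The count of genes differing with age in granulosa spots was 0, and stayed 0 with RLE size factors, the replicate block on capture area (272 genes at an unadjusted p under 0.05), at least 2000 UMIs, the top 5%, the top 20%, the top 10% within sections, no oocyte-rich spots, the k-means split and clumps only (added after seeing the data). The fits with the top 5% leave out the young section of area 4, which kept 3 spots. DESeq2 gave 3 and no filter on low counts 8; leaving out sections gave 0 to 193, the 193 without both sections of area 3. The interaction count was 0, with 4 in the top 5%, 92 with no filter and 0 to 20 over left-out sections (2 without the young and 4 without the aged section of area 3; added after seeing the data, 1 without area 2 and 20 without area 3). The block changed no call, in genes or in section measures, where its smallest p is 0.125. The difference in mean spots per clump was −2.34 spots, 7.39 with the top 20%, −8.95 with spots thinned to 5000 UMIs, and −6.87 to 2.10 over left-out sections. The theca log2 ratio was −0.08, with −0.227 in the top 20% (higher in 2 of 7 sections), 0.0207 in the top 5%, 0.0373 at 2 spacings, 0.54 without Hsd3b1, 0.49 with genes weighted alike and −0.166 to 0.0173 over left-out sections. The oocyte log2 ratio was 0.09, with −0.348 in the top 5%, −0.0898 at 2 spacings, −0.0132 with genes weighted alike and −0.147 to 0.195 over left-out sections. The share of granulosa spots and clumps per 100 spots had a higher mean in aged sections under every alternative run (16 each, 5.87 to 18.4 percentage points and 0.344 to 0.979 clumps), and none passed the adjusted threshold, but the share was higher in the aged section of 2 of 4 areas with the top 5% and of 3 with thinning. Of the 10 genes named for age, Nrcam alone changed direction, to −0.0888 with the top 10% within sections, where Scd1, Sema3d, Fut8, Plch2, Bace2 and Sesn3 were at 0.10 to 0.67. List medians ranged from 0.18 to 1.97 for macrophage, 0.10 to 1.04 for cholesterol synthesis, 0.31 to 1.30 for mitochondrially encoded, −0.90 to 0.19 for cell cycle, −2.42 to 0.09 for oocyte, −0.11 to 0.40 for other granulosa and −0.09 to 0.32 for FSH response genes. The causes of these changes were not tested. Depth limits genes of a few CPM, and 24 members with an Amh UMI give little on Amh.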

Other observations

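Several gene groups not described above were followed in the granulosa spots with age, with no gene called in edgeR. Gap junction and adhesion genes were higher in aged members for 8 of 9 tested (median log2 fold change 0.23), with Gja1, the connexin that couples granulosa cells, at 1367, 1536, 1132 and 2051 CPM in the young and 2076, 1663, 1769 and 1999 CPM in the aged members. Chaperone genes were lower for 15 of 19 tested (median −0.20), and stroma genes higher for 10 of 11 (0.28), with Dcn, the proteoglycan decorin, at a mean of 121 CPM in young and 311 CPM in aged members. Antioxidant genes were higher for 14 of 21 tested (0.12), and 8 of the 22 listed were lower in the members than in the other spots in 8 of 8 sections, where 7.21% of all genes were. Of 21 Wnt and Notch genes, 2 were higher in the members than in the other spots in 8 of 8 sections, where 9.1% of all genes were. In turn, 3 were lower in all 8 sections. The median log2 ratio of the list was −0.35, and its sum was higher in the members in 0 of 8 sections. Hey2, a Notch target with a median log2 ratio of 2.33, was among the 2 higher genes. Ovulation and cumulus expansion genes were near absent, with Ptx3, Has2, Tnfaip6, Ptgs2, Areg and Ereg each at 5.76 CPM or less in the members of every section.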
